A study of Rattus norvegicus with 9 samples.

Results

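Unannotated multi-exon loci are places where the transcript assembly of these CD4+ T cells placed transcripts that carry no gene name of the reference. At least 1 of them has 2 or more exons in the assembly, which is called spliced here. A locus was taken when all its transcripts came from the assembly, none held a reference gene name and at least 1 had 2 or more exons. Its TPM (transcript abundance scaled to the library's whole transcript pool, summed over the locus) also had to average at least 1 over the 9 libraries. Transcript structure, locus and gene name were read from normal replicate 1 alone. Of its 80092 transcripts, from 77307 (normal replicate 2) down to 71561 (combination replicate 3) had the same structure, locus and name in other libraries. The match was lowest in combination replicates 1 (72119) and 3, and the part of this mismatch in the differences reported was not tested. Of 35817 assembled loci, 3943 were unannotated and 1633 of those had a spliced transcript. The mean of 1 TPM was reached by 1248 of them, which are described here, and missed by 385. The 3 loci just inside the limit, MSTRG.6348, MSTRG.281 and MSTRG.13897, averaged 1.00 TPM each, and the 3 just outside, MSTRG.14284, MSTRG.2238 and MSTRG.69, averaged 0.991, 0.991 and 0.990 TPM. The limit used the mean over all libraries and no difference between groups. A locus high in 1 group only can pass it through that group.

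The 9 libraries held total RNA of CD4+ T lymphocytes from the blood of SD rats of 8 to 10 weeks. There were 3 libraries titled normal, 3 titled model and 3 titled combination, the last from CIA rats that had received a compound combination for 4 weeks. The model libraries were read as those of CIA rats without the combination. CIA was read as collagen-induced arthritis, an immunization-driven joint disease, because the series concerns rheumatoid arthritis. The labels name neither the compounds nor a vehicle, nor do they say that each library was a separate animal, so every p-value weighs groups against library-to-library scatter only. How the CD4+ cells were isolated is not described, and the files of the combination libraries carry other sample names in their headers than their titles. Aligned depth was 7.52 to 10.1 gigabases per library. It was 8.95, 8.35 and 9.07 in normal, 9.86, 8.04 and 10.1 in model and 7.77, 8.12 and 7.52 in combination libraries. All combination libraries thus lay below all normal ones, and the part of depth in the differences reported was not tested. T cell markers were present, with Cd4 at 202, 229.9 and 235 TPM in normal, 76.5, 186 and 99.1 TPM in model and 142, 121 and 98.1 TPM in combination libraries, and model replicate 2 lay closest to the normal libraries. Markers of other blood cells also differed: summed TPM of 6 monocyte genes was 22.7 to 130.0 in normal, 55.2 to 155.7 in model and 262.0 to 517.4 in combination libraries, and that of 6 platelet genes was 11.5 to 30.6, 21.3 to 37.7 and 83.2 to 129.6. The 5 erythroid genes measured summed to 59.7 to 1117 TPM in normal, 2396 to 16141 TPM in model and 259.4 to 862.6 TPM in combination libraries. Neutrophil markers summed to 14.3 to 33.3 TPM in normal libraries and at most 8.60 TPM in the others. No gene of these 4 lists found in the files was at 0 in all libraries. In such bulk RNA, fewer cells of a type and less RNA per cell cannot be told apart, and the part of these other cells in the differences reported was not tested.

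Unannotated spliced loci of this kind can be long noncoding RNAs, antisense transcripts, hosts of small nucleolar RNAs (snoRNAs, guides of ribosomal RNA modification that lie in introns of a longer transcript), or parts of genes that the reference misses. Many mammalian promoters are divergent, that is, they start one RNA in each direction. Antisense RNAs overlap the exons or introns of a gene on the other strand. Neither a strand-marking kit nor a strand setting is given in the sources used here. Reads from overlapping exons of opposite strands therefore cannot be told apart, and TPM is then split between the transcripts by the assembler. Nor can reads of a locus within an intron be told from unspliced RNA of the gene around it.

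The starts of 55 loci faced the start of a named gene on the opposite strand within 2 kb, and 22 of them within 100 bases. Only the bases between the 2 starts lie upstream of both. Results turn on 3 of these pairs, so the 250 bases upstream of each named gene, on its strand, are shown. The genes are Nfkb2 (a subunit precursor of the NF-kappa B transcription factors) beside MSTRG.2131 and Iqcg (a protein of cilia and flagella) beside MSTRG.4025. The third is Mgat2 (a Golgi enzyme of N-glycan synthesis) beside MSTRG.14474. Starts of these 3 pairs lie within 100 bases of each other in rn6, so most of each sequence falls within the span of the locus. The sequences come from RefSeq, assembly GRCr8, and capitals mark matches on either strand to the motifs searched.
Nfkb2: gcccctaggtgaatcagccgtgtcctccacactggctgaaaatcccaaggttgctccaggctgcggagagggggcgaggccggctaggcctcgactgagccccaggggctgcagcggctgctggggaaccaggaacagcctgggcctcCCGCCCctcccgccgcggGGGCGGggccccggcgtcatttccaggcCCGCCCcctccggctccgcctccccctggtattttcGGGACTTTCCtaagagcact
Iqcg: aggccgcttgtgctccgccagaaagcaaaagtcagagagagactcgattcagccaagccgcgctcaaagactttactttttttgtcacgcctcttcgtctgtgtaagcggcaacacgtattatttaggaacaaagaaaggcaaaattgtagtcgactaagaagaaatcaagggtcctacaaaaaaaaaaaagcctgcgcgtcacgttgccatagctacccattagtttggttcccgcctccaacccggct
Mgat2: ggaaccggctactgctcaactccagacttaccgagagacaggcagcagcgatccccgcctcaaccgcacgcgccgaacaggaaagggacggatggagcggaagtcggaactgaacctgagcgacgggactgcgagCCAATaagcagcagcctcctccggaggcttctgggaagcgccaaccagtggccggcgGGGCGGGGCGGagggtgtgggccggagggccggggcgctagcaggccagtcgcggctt

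The motifs searched, each on both strands, were the kappa B site, the CCAAT box, the GC box GGGCGG, the ETS factor motif CCGGAAG and the TATA box in its form TATAAA. The Nfkb2 stretch held 1 kappa B match and 3 GGGCGG matches, the Mgat2 stretch 1 CCAAT and 2 overlapping GGGCGG matches, and the Iqcg stretch none of the 5. Of the 55 divergent loci, 41 had a partner promoter in the table of 33469. GGGCGG was found in 58.5% of these 41 and in 30.5% of all, CCGGAAG in 17.1% and 7.27%, CCAAT in 29.3% and 34.02%, the kappa B site in 7.32% and 6.33%, and TATAAA in 2.44% and 12.9%. Median GC content was 61.2% in the 41 and 51.2% in all, and the median count of CpG was 19 and 5. These partner promoters were thus richer in GC and CpG at the median than the table as a whole, and no motif match is taken as a binding site.

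Beside Nfkb2, MSTRG.2131 (rn6 chr1:266048765-266052991, minus strand, 11 bases from the Nfkb2 start, 3 exons at most) was at 10.8, 9.55 and 9.896 TPM in the normal libraries, 10.3, 10.3 and 10.4 TPM in the model libraries and 13.8, 10.01 and 10.4 TPM in the combination libraries. Nfkb2 itself was at 54.2, 21.4 and 27.8 TPM in the normal libraries, 207, 152 and 262 TPM in the model libraries and 299, 213 and 151 TPM in the combination libraries. Differences are given as log2 fold changes ± SE on the log2(TPM + 1) scale, with adjusted p-values from limma (Benjamini-Hochberg over all 14176 gene units tested, threshold 0.05), and coordinates are those of rn6. All model libraries of Nfkb2 lay above all normal ones (model against normal 2.62 ± 0.36, adjusted p = 0.0133), whereas the locus differed by 0.03 ± 0.16, adjusted p = 0.923. The locus thus stayed within a narrow range while the gene rose. Exons of other loci cover 53.9% of its exon bases. The difference between these 2 fold changes was not tested.

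MSTRG.4025 (chr11:70963107-70967204, minus strand, 5 exons) starts 19 bases from Iqcg and was the most abundant divergent locus, at 567, 891 and 225 TPM in the normal libraries, 657, 213 and 535 TPM in the model libraries and 1049, 1362 and 1111 TPM in the combination libraries. Iqcg averaged 0.0932, 0.0775 and 0.207 TPM in the 3 groups. The locus was thus far above the gene that names the position, and its combination libraries lay above all others without passing the threshold (combination against model 1.47 ± 0.51, adjusted p = 0.114). Between Lmln and Iqcg, the named genes that flank the locus, RefSeq GRCr8 lists 1 gene, Rpl35a (a protein of the large ribosomal subunit). Only genes on the strand of the locus, and not already named there by the reference, are counted, here and below. The files also hold 1 unit named Rpl35a, and whether the locus is that gene was not tested. MSTRG.14474, 27 bases from Mgat2, was at 72.6, 139 and 76.4 TPM in the normal libraries, 86.5, 118 and 109.8 TPM in the model libraries and 151, 113 and 90.3 TPM in the combination libraries, where the groups overlapped. Exons of other loci cover 93.3% of its exon bases. Mgat2 averaged 118, 119.7 and 97.4 TPM, a level like that of the locus.

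The 1248 loci held 2642 transcripts. The transcript of most exons had 2 in 754 loci, 3 or 4 in 354 and 5 or more in 140, against a median of 8 exons for the 11300 named genes tested. The median length of the longest transcript was 930 bases (range 200 to 14354). The median intron of the main spliced transcript measured 1215 bases at the median locus. It measured 23 bases in MSTRG.13915, 24 in MSTRG.12196, MSTRG.11046 and MSTRG.14736, and 29 in MSTRG.4749, all of 2 exons. Whether gaps this short are introns was not tested. The median level was 3.44 TPM against 14.3 TPM for named genes. A mean of 10 TPM was reached by 291 loci and 100 TPM by 52, and 351 lay under 2 TPM. Loci were spread evenly over the strands, with 635 on the plus and 613 on the minus strand, and 34 lay on unplaced scaffolds. In 69 loci under 50% of the TPM came from spliced transcripts, so their level is mostly that of single-exon ones. In 159 loci at least 1 library was at 0, and in 54 a single library held at least 50% of the summed TPM. The set was therefore mostly short, low and of few exons, with a small abundant fraction: the 10 highest loci held 40.7% of its TPM.

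By position, antisense loci were the largest group. Of the 1248, 410 overlapped exons of a named gene on the other strand and 177 overlapped the span of a named gene on the other strand without a shared exon base. Of these 177, 78 lay wholly within the gene, 63 had the gene within their own span and 36 overlapped it in part. Another 96 lay on the same strand within or across the span of a named gene without sharing its name, and 18 of those spans held a snoRNA gene. Within 10 kb but outside any gene, 55 were divergent, 71 downstream and 57 upstream on the same strand, and 80 lay otherwise on the opposite strand. The remaining 280 lay more than 10 kb from any named gene, at a median of 32.4 kb, and 22 on scaffolds without one. The nearest named gene was on the opposite strand in 830 loci and on the same strand in 396. It carried a clone or LOC-like name in 335, so a part of the neighbours is itself little described. At least 50% of the exon bases lay within exons of other loci in 434 loci, and none did in 613.

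**Figure D1:**
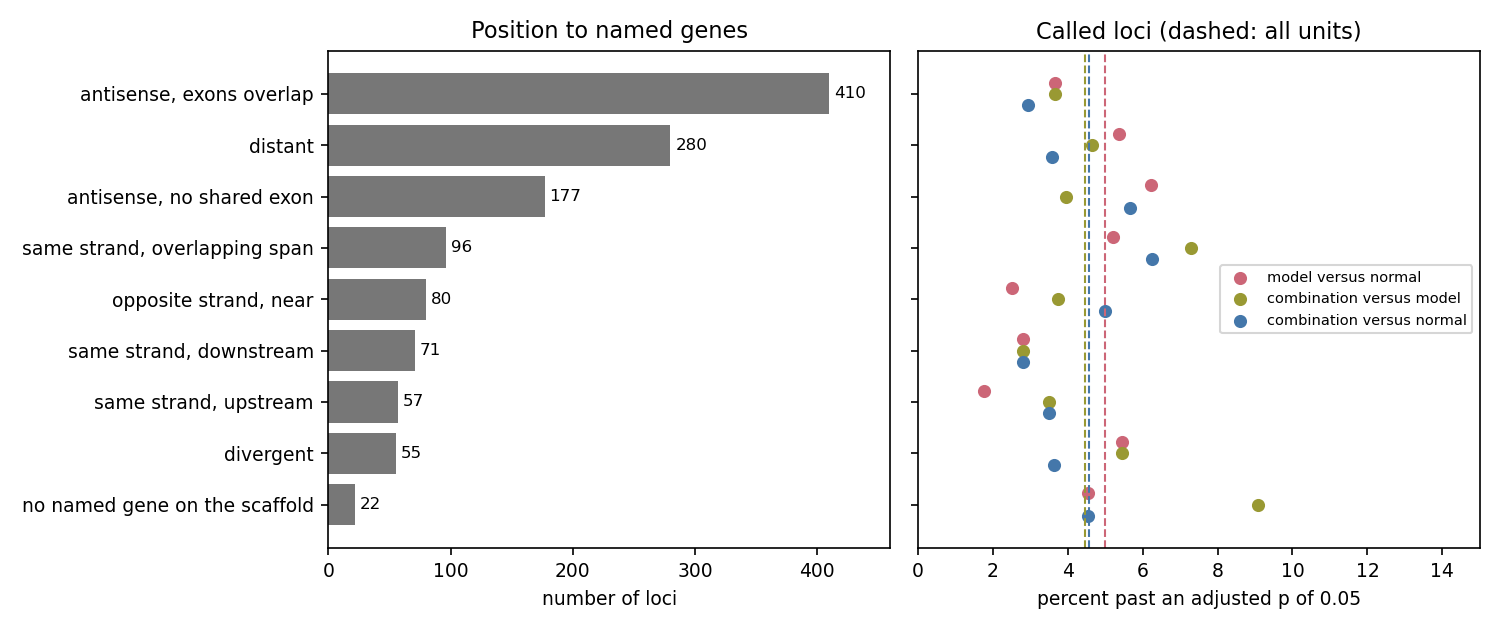
Number of unannotated multi-exon loci by position to named genes (left, bars) and, for each position, the percentage of loci past an adjusted p of 0.05 in each comparison (right, points), with the percentage over all 14176 units as dashed lines. Antisense loci with no shared exon overlap the span of a named gene only. Antisense loci that overlap exons are the largest class, at 410, and 2.93% to 3.66% of them passed, below the dashed lines.

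The most abundant loci of 4 of these classes did not pass in any comparison. MSTRG.3277 (chr10:85864569-85865306, plus strand), near Plxdc1 on the opposite strand, was at 435, 476 and 523 TPM in the normal libraries, 444, 433 and 479 TPM in the model libraries and 478, 407 and 493 TPM in the combination libraries. MSTRG.14736 (chr6:125107673-125108230, plus strand) lies 47.2 kb from Ppp4r3a, has 17.7% of its TPM in spliced transcripts and was at 309, 354 and 341 TPM in the normal libraries, 495, 344 and 319 TPM in the model libraries and 355, 392 and 448 TPM in the combination libraries. MSTRG.10368 (chr20:19378642-19485247, minus strand), which runs across a 7SK gene of the other strand, was at 353, 216 and 439 TPM in the normal libraries, 280.3, 165 and 143 TPM in the model libraries and 263, 344 and 249.9 TPM in the combination libraries. Groups overlapped in each comparison for the first and the last of these, while the combination libraries of MSTRG.14736 lay just above its normal ones. MSTRG.17726 (unplaced scaffold, minus strand), on a scaffold without a named gene, ranged from 89.7 to 239.6 TPM. Exons of other loci cover 96.6% and 95.5% of the exon bases of these last 2.

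The most abundant locus was MSTRG.9001 (chr2:54813411-54834665, plus strand, 5 exons, 1 transcript of 462 bases), at 3259.6, 3200.2 and 3477 TPM in the normal libraries, 3265, 3048 and 3085 TPM in the model libraries and 3284, 3259 and 4044 TPM in the combination libraries. It runs antisense across Card6, holds a SNORD72 gene and lies between Mroh2b and Prkaa1. By the count used above, RefSeq GRCr8 lists 1 gene between these, Rpl37, and the named genes C7 and Card6 also lie there. Groups of MSTRG.9001 overlapped (model against normal -0.08 ± 0.11, adjusted p = 0.677). Exons of other loci cover 78.1% of its exon bases. MSTRG.3552 (chr10:103198373-103202166, plus strand, 5 exons) lies upstream of Ttyh2 and was at 1577, 2783 and 1784 TPM in the normal libraries, 2572, 1833 and 2167 TPM in the model libraries and 2137, 1751 and 2632 TPM in the combination libraries. By the same count GRCr8 lists 3 genes between its flanking genes Sdk2 and Ttyh2, Rpl38 among them. MSTRG.14953 (chr7:3018127-3053896, minus strand, up to 6 exons) was at 2304, 2237 and 2231 TPM in the normal libraries, 2059.9, 2032 and 1997 TPM in the model libraries and 1837, 1710.2 and 1817 TPM in the combination libraries. By the same count GRCr8 lists only Rps26 between its flanks Pa2g4 and Suox, and the named genes Erbb3 and Ikzf4 also lie there. Libraries of MSTRG.14953 were lower in the model than in normal and lower again in the combination, with no overlap, and combination against normal missed the threshold (-0.34 ± 0.09, adjusted p = 0.0667). MSTRG.1302 (chr1:185327714-185331357, plus strand, 7 exons) holds a SNORD14 gene and was at 1347, 1693 and 1577 TPM in the normal libraries, 1341, 749 and 952 TPM in the model libraries and 1429, 1023 and 1524 TPM in the combination libraries, and GRCr8 lists Rps13 between Pik3c2a and Sox6. Ribosomal protein genes are among the most transcribed genes of any cell, and several carry snoRNAs in their introns. These genes are named from gene order in another assembly. The files also hold 1 unit each named Rpl37 and Rpl38 and none named Rps26 or Rps13, and whether the loci are these genes was not tested.

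Among the others of the 10, MSTRG.13915 (chr5:164923262-164923640, minus strand, 2 exons) overlaps LOC108349682 antisense, has 87.3% of its exon bases in exons of other loci and was at 1172, 712 and 417 TPM in the normal libraries, 1154, 445 and 986 TPM in the model libraries and 1422, 1482 and 1537 TPM in the combination libraries. Its combination libraries lay above all others and did not pass the threshold (combination against model 0.89 ± 0.40, adjusted p = 0.196). MSTRG.2787 (chr10:48880228-48881891, minus strand, 3 exons) lies antisense to Ubb, a polyubiquitin gene, with 86.01% of its exon bases in exons of other loci, and was at 762, 600.0 and 817 TPM in the normal libraries, 726, 743 and 1221 TPM in the model libraries and 520.0, 585 and 417 TPM in the combination libraries. It was lowest in the combination libraries, again short of the threshold (-0.79 ± 0.23, adjusted p = 0.0727 against model). MSTRG.13584, antisense to Oscp1, ranged from 140.1 to 1240.4 TPM, and its 3 groups overlapped. MSTRG.7907 and MSTRG.2761, which hold SNORA13 and SNORD65 with 2 SNORD49 genes, averaged 795 ± 67.8 TPM and 556 ± 104 TPM (SD, n = 3) in normal libraries. None of the 10 passed limma's adjusted threshold in any comparison, while at an unadjusted p under 0.05 there were 1 in model against normal, 2 in combination against model and 6 in combination against normal, beside 27.1%, 26.3% and 26.1% of all units.

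**Figure D2:**
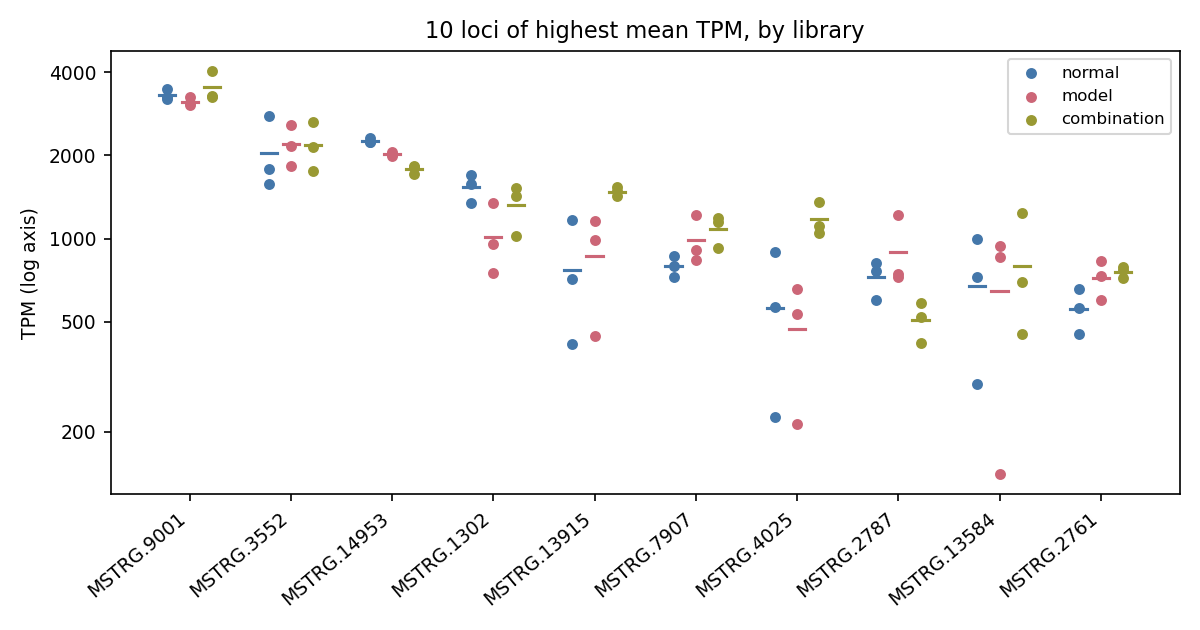
TPM of the 10 loci of highest mean TPM in each library (points, log axis) with the mean of each group (lines). MSTRG.9001 sits at 3048 to 4044 TPM in all 9 libraries, whereas MSTRG.13584 spreads within each group.

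A snoRNA or scaRNA gene lay on the same strand within the span of 26 loci, whose median level was 37.6 TPM, against 3.44 TPM for all 1248. This group was formed after values were seen. MSTRG.5177 (chr13:78851661-78855928, plus strand) had 11 exons in its main transcript and was at 222, 215 and 259.8 TPM in the normal libraries, 234, 206 and 245 TPM in the model libraries and 245, 315 and 297 TPM in the combination libraries. GRCr8 lists Gas5, a noncoding host gene of snoRNAs, between its flanks Serpinc1 and Cenpl. In model against normal, 1 of the 26 passed (3.85%, against 4.99% of all units called), downwards: MSTRG.5651 (chr14:36663960-36665822, minus strand, 3 exons), which holds SNORA26, was at 16.3, 15.5 and 12.6 TPM in the normal libraries, 7.93, 9.58 and 8.61 TPM in the model libraries and 12.5, 10.6 and 10.4 TPM in the combination libraries. Its normal libraries lay above all others (model against normal -0.699 ± 0.16, adjusted p = 0.0442), and GRCr8 lists Dancr, a noncoding RNA gene, between Rasl11b and Usp46. In combination against model 1 of the 26 passed (3.85%, against 4.47%) and in combination against normal 3 (11.5%, against 4.56%), all upwards. MSTRG.13709 (chr5:150489334-150492066, plus strand), with SNORA16, was at 389, 383 and 294 TPM in the normal libraries, 520.4, 394 and 411 TPM in the model libraries and 516, 638 and 642 TPM in the combination libraries and rose in combination against normal (0.76 ± 0.17, adjusted p = 0.0422). The SNORA16 unit itself averaged 18.9, 5.34 and 7.87 TPM, so host and snoRNA did not share an order of groups.

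Gene order could be compared with GRCr8 for 983 loci whose flanking named genes kept their order. Counted were GRCr8 genes on the strand of the locus that the reference does not already name there. None lay between the flanks for 418 loci, exactly 1 for 244 and 2 or more for 321. Of the 244 single genes, 172 are lncRNA genes and 72 protein-coding, and 178 carry uncharacterised LOC names. Intervals with at least 1 such gene in the later annotation thus outnumbered those with none. A gene was counted wherever it lay between the flanks, and the interval of MSTRG.6360 held 13. No share was computed for intervals without a locus, so the count does not tell how many loci are such genes.

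Model against normal asks what differs in CD4+ T cells of arthritic rats. Of the 1248 loci, 55 passed the threshold (4.41%, against 4.99% of all 14176 units). Of these 13 were higher in the model and 42 lower, where 2.83% of all units were higher and 2.16% lower. Of the 55, 23.6% were thus higher, against 56.7% of the units called. The median log2 fold change was -0.10 over the loci and -0.01 over all units. Groups did not overlap in 355 loci (28.4%, against 33.2% of units). The count rested on single libraries: it was 185 without model replicate 2 and 5, 2 and 7 without normal replicates 1, 2 and 3, of which 54, 4, 2 and 6 were among the 55. Without model replicates 1 and 3 it was 17 and 15, and without combination replicate 2, which enters the estimate of spread, 28. The share of higher calls moved too: it was 5.88% without model replicate 1, 46.7% (7 of 15) without model replicate 3, and no call was higher without any 1 of the normal replicates. The calls of MSTRG.1183 and MSTRG.12196 held in every fit without 1 of the 6 model and normal libraries.

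Among the rises, MSTRG.8164 (chr18:71364403-71395309, minus strand, 2 exons) starts 521 bases from Smad7, the inhibitory Smad of TGF-beta signalling, on the other strand. It was at 3.04, 2.95 and 4.92 TPM in the normal libraries, 11.1, 9.96 and 11.7 TPM in the model libraries and 4.23, 3.39 and 1.75 TPM in the combination libraries. All model libraries lay above all others. The locus rose in the model (1.39 ± 0.26, adjusted p = 0.0264) and fell in the combination against model (-1.58 ± 0.26, adjusted p = 0.02604), 2 comparisons that share the model libraries. Smad7 was at 22.7, 27.7 and 44.1 TPM in the normal libraries, 209, 238 and 482 TPM in the model libraries and 92.8, 52.7 and 30.9 TPM in the combination libraries and rose and fell in the same comparisons (3.21 ± 0.43, adjusted p = 0.0131, and -2.41 ± 0.43, adjusted p = 0.0296). Exons of other loci cover 74.7% of the exon bases of MSTRG.8164.

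MSTRG.7327 (chr17:13587722-13618109, plus strand, up to 5 exons) lies antisense to Cks2, a subunit of cyclin-dependent kinases needed in cell division, with 25.01% of its exon bases in exons of other loci. It was at 2.11, 1.403 and 1.65 TPM in the normal libraries, 12.6, 8.44 and 31.1 TPM in the model libraries and 9.02, 3.87 and 3.198 TPM in the combination libraries and rose in the model (2.56 ± 0.45, adjusted p = 0.0238). Cks2 was at 31.1, 13.3 and 16.9 TPM in the normal libraries, 163, 102 and 286 TPM in the model libraries and 82.9, 77.7 and 56.2 TPM in the combination libraries and rose too (3.07 ± 0.39, adjusted p = 0.0115). In both, model libraries lay above all normal ones, with model replicate 3 highest.

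The largest fold change was that of MSTRG.2477 (chr10:15577563-15603613, plus strand), antisense to the alpha globin gene Hba-a2, with 97.6% of its exon bases in exons of other loci. It was at 8.498, 0.602 and 19.4 TPM in the normal libraries, 485, 97.8 and 45.9 TPM in the model libraries and 11.6, 2.59 and 7.86 TPM in the combination libraries (4.28 ± 1.03, adjusted p = 0.0462). Hba-a2 was at 241, 43.05 and 786 TPM in the normal libraries, 10917, 2368 and 1671 TPM in the model libraries and 601, 183 and 257 TPM in the combination libraries and did not pass (4.11 ± 1.01, adjusted p = 0.05002). The sum of the erythroid markers, which include Hba-a2, was likewise highest in the model libraries.

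MSTRG.8127 (chr18:64017172-64021909, minus strand, 2 exons) lies antisense within an intron of Ldlrad4, an inhibitor of TGF-beta signalling. It was at 0.148, 0.695 and 0.699 TPM in the normal libraries, 2.63, 2.59 and 11.2 TPM in the model libraries and 0.892, 0.634 and 0.466 TPM in the combination libraries (1.86 ± 0.43, adjusted p = 0.0433). Normal and combination libraries averaged 0.514 and 0.664 TPM, so it passed the 1 TPM limit through the model. Its 2 exons are 61 bases apart. Ldlrad4 differed by 1.38 ± 0.44, adjusted p = 0.0921, and in combination against model by -1.71 ± 0.44, adjusted p = 0.0565. MSTRG.14673 (chr6:110904165-110907525, plus strand, 3 exons) overlaps Irf2bpl antisense, has 5.803% of its exon bases in exons of other loci and 2.57% of its TPM in spliced transcripts, and was at 23.98, 28.2 and 28.1 TPM in the normal libraries, 57.03, 62.1 and 81.1 TPM in the model libraries and 44.9, 40.6 and 18.7 TPM in the combination libraries (1.27 ± 0.30, adjusted p = 0.0436), while Irf2bpl rose by 1.41 ± 0.34, adjusted p = 0.0454. In both loci the model libraries lay above all others. MSTRG.11120, antisense to the peroxisome biogenesis gene Pex16 with 98.7% of its exon bases in exons of other loci, rose by 1.05 ± 0.24, adjusted p = 0.0435, and Pex16 by 0.81 ± 0.13, adjusted p = 0.0187. MSTRG.17679 (unplaced scaffold, minus strand, 6 exons) has no named gene on its scaffold and rose from 11.6 ± 1.89 TPM to 35.9 ± 15.2 TPM (1.48 ± 0.30, adjusted p = 0.031005). MSTRG.1965, between Smarca2 and Vldlr, rose from 1.77 ± 0.312 TPM to 5.68 ± 2.401 TPM (1.21 ± 0.27, adjusted p = 0.0394) and fell in combination against model (-1.55 ± 0.27, adjusted p = 0.0268).

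Among the falls, MSTRG.12196 (chr4:70821259-70821818, minus strand, 2 exons) lies antisense to AC142181.1, between Prss1 and Ephb6, the interval of the T cell receptor beta locus. Its 2 exons are 24 bases apart, and exons of other loci cover 42.2% of its exon bases. It was at 14.8, 17.1 and 13.1 TPM in the normal libraries, 3.23, 4.203 and 2.26 TPM in the model libraries and 9.89, 9.44 and 7.55 TPM in the combination libraries. The groups did not overlap: normal was highest, model lowest and combination between. It fell in the model (-1.94 ± 0.21, adjusted p = 0.00751) and rose in combination against model (1.25 ± 0.21, adjusted p = 0.0261). AC142181.1 averaged 298, 213 and 293 TPM and did not pass (adjusted p = 0.0776 for model against normal).

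MSTRG.1183 (chr1:166578138-166580560, minus strand, 2 exons), antisense within an intron of the phosphodiesterase gene Pde2a, was at 3.08, 3.495 and 3.94 TPM in the normal libraries, 0.569, 0.196 and 0.392 TPM in the model libraries and 0.987, 1.24 and 1.68 TPM in the combination libraries. All model libraries lay below all others (-1.71 ± 0.20, adjusted p = 0.00858), while Pde2a differed by -0.02 ± 0.19, adjusted p = 0.952. MSTRG.1011 (chr1:136804086-136871483, minus strand, up to 7 exons), between Slco3a1 and Akap13 and overlapping Sv2b on its strand, runs across a 7SK gene on the other strand and was at 14.5, 20.03 and 19.95 TPM in the normal libraries, 3.08, 6.35 and 2.93 TPM in the model libraries and 4.58, 3.82 and 4.93 TPM in the combination libraries. Its normal libraries lay above all others, and it fell in model against normal (-1.95 ± 0.26, adjusted p = 0.0128) and in combination against normal (-1.81 ± 0.26, adjusted p = 0.0166).

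MSTRG.3510 (chr10:94983501-94984754, plus strand, 3 exons) lies antisense to Ddx5, an RNA helicase of splicing and transcription. It was at 10.5, 11.4 and 27.5 TPM in the normal libraries, 3.62, 4.51 and 4.71 TPM in the model libraries and 15.5, 12.4 and 23.3 TPM in the combination libraries. It fell in the model (-1.601 ± 0.35, adjusted p = 0.0371) and rose in combination against model (1.74 ± 0.35, adjusted p = 0.0346), and Ddx5 differed by -0.095 ± 0.15, adjusted p = 0.714 in the first. MSTRG.11046 (chr3:66246425-66250414, minus strand, 2 exons), antisense within an intron of Itga4, the alpha 4 integrin of lymphocyte homing, was at 2.13, 4.97 and 4.86 TPM in the normal libraries, 0.722, 1.43 and 0.352 TPM in the model libraries and 5.44, 3.18 and 5.72 TPM in the combination libraries. It followed the same course (-1.43 ± 0.33, adjusted p = 0.0419, then 1.67 ± 0.33, adjusted p = 0.0325). Itga4 differed by -0.38 ± 0.27, adjusted p = 0.377, then by 0.72 ± 0.27, adjusted p = 0.132. In both loci all model libraries lay below all others. The remaining falls named by the rule were those of MSTRG.17092 in Gltscr1l (-1.69 ± 0.41, adjusted p = 0.0473), MSTRG.4482 near LOC685157 (-1.67 ± 0.35, adjusted p = 0.0318), MSTRG.6360 (-1.68 ± 0.24, adjusted p = 0.0137) and MSTRG.10781, 31.4 kb from Naif1 (-1.501 ± 0.32, adjusted p = 0.0344). MSTRG.17092 was listed at 0 in model replicates 2 and 3, so its fold is rough.

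**Figure D3:**
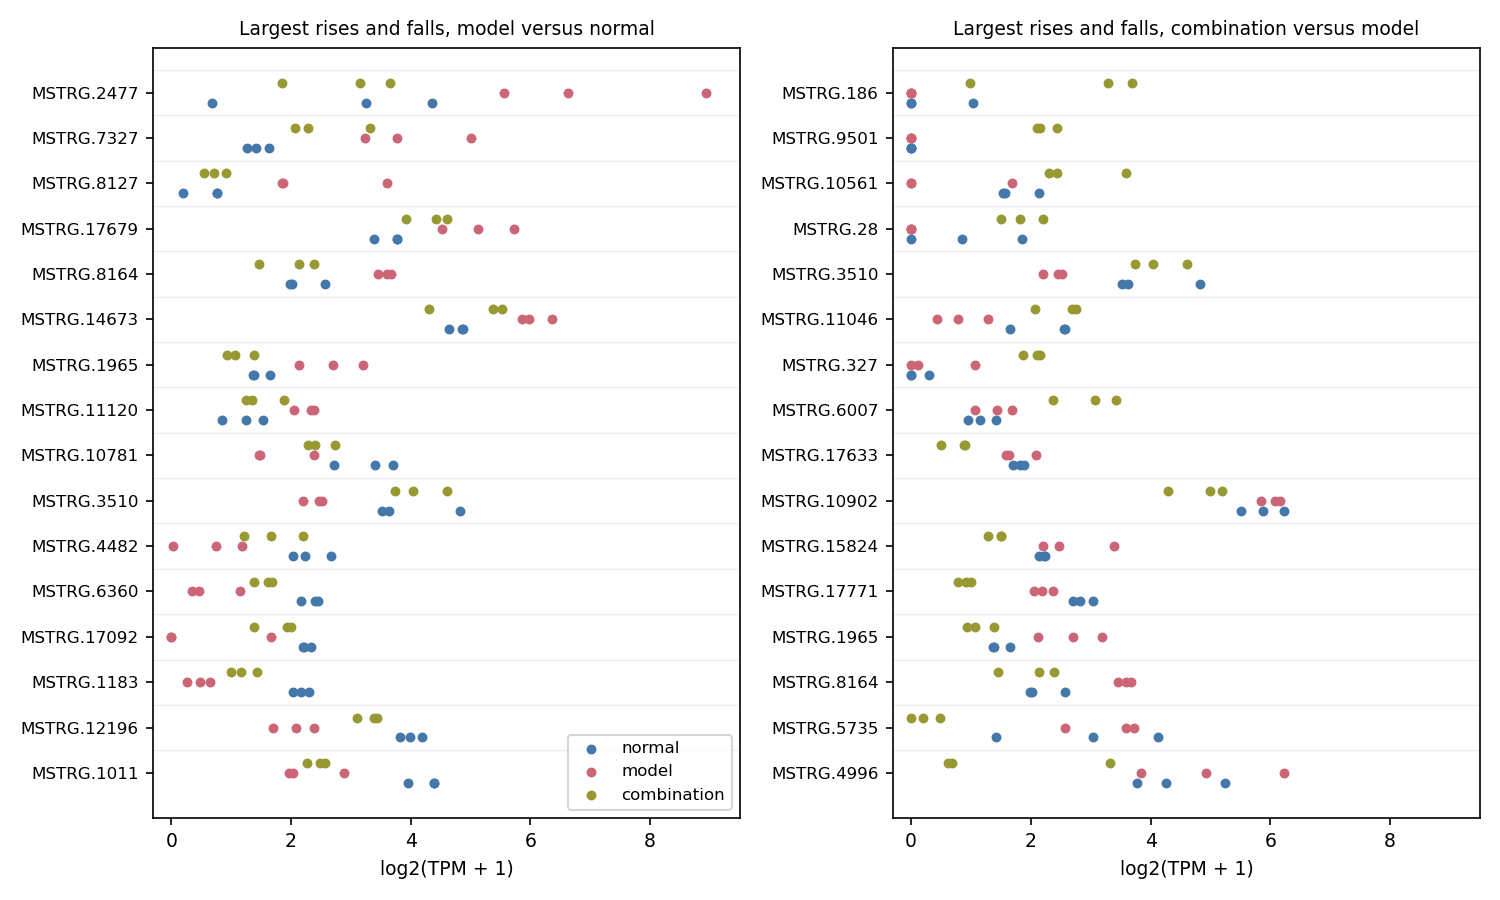
Level of each locus in each library, as log2(TPM + 1), for the 8 largest rises and 8 largest falls of model against normal (left) and of combination against model (right). Colours mark the groups, and points of MSTRG.9501 lie at 0 in all 6 normal and model libraries.

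Combination against model asks what differs after treatment. Of the 1248 loci, 54 passed (4.33%, against 4.47% of all units), 40 higher and 14 lower, where 2.40% of units were higher and 2.07% lower. The median log2 fold change was 0.20 over the loci and 0.03 over all units, and 74.1% of the loci called were higher, against 53.7% of the units called. Groups did not overlap in 321 loci (25.7%, against 26.9% of units). The count was 108 without model replicate 2 and 25 and 6 without model replicates 1 and 3. It was 4, 7 and 32 without combination replicates 1, 2 and 3, and 13, 9 and 27 without normal replicates 1, 2 and 3. The share of higher calls was 25.0% (1 of 4) without combination replicate 1 and 33.3% (2 of 6) without model replicate 3, so the larger number of higher calls was lost without either library. MSTRG.9501 alone held in every fit without 1 of the 6 combination and model libraries. It passed the 1 TPM limit through its combination libraries alone, so this is no independent support for the call.

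MSTRG.9501 (chr2:193531234-193538845, minus strand, 2 exons, 808 bases), between Crnn and Rptn and 33.2 kb from the nearest named gene, was listed at 0 in all 6 normal and model libraries and at 3.28, 4.43 and 3.43 TPM in the combination libraries (adjusted p = 0.00391 against model and 0.00391 against normal). Exons of other loci cover 66.7% of its exon bases. MSTRG.186 was listed at 0 in all model libraries and in 2 normal ones and at 8.82, 0.987 and 11.9 TPM in the combination (adjusted p = 0.04501), and MSTRG.28 at 0 in all model libraries and at 1.81, 2.51 and 3.58 TPM in the combination (adjusted p = 0.0419). A listed 0 can be a failed estimate, so no fold is given for these 3 loci. MSTRG.9501 and MSTRG.186 averaged under 1 TPM in normal and in model libraries and passed the limit through the combination.

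MSTRG.327 (chr1:59833822-59857918, minus strand, 2 exons) lies 31.4 kb from Fpr2, a formyl peptide receptor of phagocytes, and was at 0, 0 and 0.229 TPM in the normal libraries, 1.101, 0 and 0.0776 TPM in the model libraries and 3.44, 3.29 and 2.65 TPM in the combination libraries. The combination libraries of the locus lay above all others (1.65 ± 0.29, adjusted p = 0.0261 against model). Those of the monocyte marker sum did so too, and that sum was not tested. Normal and model libraries of the locus averaged 0.0764 and 0.393 TPM, so it passed the 1 TPM limit through the combination. Fpr2 was at 4.57, 4.03 and 0.441 TPM in the combination, at 0.0196, 0.0659 and 0.131 TPM in normal and at 0.0781, 0.04498 and 0.0899 TPM in model libraries, and did not pass (1.68 ± 0.44, adjusted p = 0.0582). MSTRG.6007 (chr14:106080029-106152861, minus strand, 2 exons), whose span holds SNORA17 between Peli1 and Vps54, was at 1.23, 0.925 and 1.66 TPM in the normal libraries, 2.21, 1.09 and 1.6998 TPM in the model libraries and 9.77, 4.15 and 7.44 TPM in the combination libraries and rose against both other groups (1.56 ± 0.29, adjusted p = 0.0298 against model, 1.79 ± 0.29, adjusted p = 0.0257 against normal). MSTRG.10561, antisense to Aim1, rose from 0.744 ± 1.29 TPM to 6.45 ± 3.95 TPM (2.21 ± 0.49, adjusted p = 0.0431). It was listed at 0 in model replicates 1 and 2, so its fold is rough. Exons of other loci cover 78.2% of its exon bases.

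Among the falls, MSTRG.4996 (chr13:45309274-45318833, plus strand, up to 7 exons) lies antisense to Cxcr4, the receptor of the homing chemokine CXCL12, with 98.6% of its exon bases in exons of other loci. It was at 18.2, 12.7 and 36.9 TPM in the normal libraries, 13.3, 29.6 and 74.1 TPM in the model libraries and 0.537, 0.598 and 8.99 TPM in the combination libraries. Combination libraries lay below all others (-3.46 ± 0.79, adjusted p = 0.04501). Cxcr4 was at 3309, 3369 and 3214 TPM in the normal libraries, 4043, 3396 and 8045 TPM in the model libraries and 2669, 1868 and 2255 TPM in the combination libraries, also lowest in the combination, and missed the threshold (-1.098 ± 0.28, adjusted p = 0.0551). MSTRG.5735 (chr14:59979958-59980484, plus strand), antisense to LOC100361259 with all its exon bases in exons of other loci, was at 1.67, 7.18 and 16.4 TPM in the normal libraries, 4.92, 12.2 and 10.97 TPM in the model libraries and 0.152, 0 and 0.398 TPM in the combination libraries and fell (-3.06 ± 0.59, adjusted p = 0.03098). MSTRG.10902 (chr3:23239974-23297713, plus strand), antisense to Rpl35 of the large ribosomal subunit, was at 74.3, 44.4 and 58.005 TPM in the normal libraries, 70.6, 56.5 and 66.9 TPM in the model libraries and 18.6, 35.7 and 30.9 TPM in the combination libraries and fell (-1.201 ± 0.26, adjusted p = 0.0416), and Rpl35 differed by -0.06 ± 0.09, adjusted p = 0.717.

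MSTRG.17771 (unplaced scaffold, minus strand, up to 5 exons) has no named gene on its scaffold and was at 5.51, 6.05 and 7.19 TPM in the normal libraries, 3.52, 3.13 and 4.15 TPM in the model libraries and 1.002, 0.884 and 0.728 TPM in the combination libraries. The 3 groups did not overlap, with normal highest and combination lowest. It fell in combination against model (-1.29 ± 0.18, adjusted p = 0.0232) and against normal (-1.95 ± 0.18, adjusted p = 0.00436). MSTRG.15824, downstream of Pacsin2 (-1.26 ± 0.28, adjusted p = 0.0431), and MSTRG.17633, between Twsg1 and Ndufv2 (-1.01 ± 0.21, adjusted p = 0.0363), complete the falls named by the rule with MSTRG.8164 and MSTRG.1965 above.

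Combination against normal asks what still differed from healthy rats after treatment. It passed the threshold in 49 of the 1248 loci (3.93%, against 4.56% of units), 29 higher and 20 lower, where 2.60% of units were higher and 1.95% lower. Groups did not overlap in 367 loci (29.4%, against 35.7% of units), and the median log2 fold change was 0.09 over the loci and 0.04 over all units. The count was 3, 9 and 58 without combination replicates 1, 2 and 3, 4, 3 and 10 without normal replicates 1, 2 and 3, and 102 without model replicate 2. MSTRG.9501, MSTRG.17771 and MSTRG.18245 held in every fit without 1 of the 6 combination and normal libraries. The first of these passed the 1 TPM limit through its combination libraries alone.

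MSTRG.18245 (chrX:107642312-107690224, minus strand, up to 7 exons), 5.27 kb from Fam199x on the opposite strand, was at 24.9, 20.9 and 22.1 TPM in the normal libraries, 47.2, 42.5 and 42.6 TPM in the model libraries and 52.1, 65.1 and 54.9 TPM in the combination libraries. The groups did not overlap, and the locus was higher in the model (0.94 ± 0.15, adjusted p = 0.0187) and in the combination (1.303 ± 0.15, adjusted p = 0.00879) than in normal; it was chosen after its values were seen. MSTRG.17497 (chr9:85503434-85552185, plus strand, 2 exons), in the span of Mrpl44 and overlapping Wdfy1 on the other strand without a shared exon base, was at 384, 259 and 317 TPM in the normal libraries, 233, 276 and 184 TPM in the model libraries and 102, 139 and 137 TPM in the combination libraries and was lower in the combination than in normal (-1.34 ± 0.21, adjusted p = 0.0229) and in the model (-0.87 ± 0.21, adjusted p = 0.0491). MSTRG.4749 (chr12:40498386-40498686, minus strand), antisense to the aldehyde dehydrogenase gene Aldh2 with 95.2% of its exon bases in exons of other loci, was at 40.6, 33.2 and 32.1 TPM in the normal libraries, 23.7, 17.5 and 25.7 TPM in the model libraries and 13.4, 15.4 and 13.6 TPM in the combination libraries and fell (-1.26 ± 0.18, adjusted p = 0.0166), as did Aldh2 (-0.89 ± 0.19, adjusted p = 0.0385). Its 3 groups did not overlap, with the combination lowest.

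The other rises against normal named by the rule were MSTRG.2508, antisense to Lcp2, an adaptor of T cell receptor signalling, (2.05 ± 0.42, adjusted p = 0.0359), MSTRG.12588 in the span of Csgalnact2 (1.53 ± 0.27, adjusted p = 0.0266), MSTRG.9928 near RT1-CE10 (1.47 ± 0.28, adjusted p = 0.0329), MSTRG.3763, which runs across Rpl5l1 on the other strand (1.43 ± 0.32, adjusted p = 0.0437) and MSTRG.12071 antisense to Cnot4, a ubiquitin ligase of the deadenylase complex (1.39 ± 0.32, adjusted p = 0.04504). MSTRG.2508 was listed at 0 in normal replicates 1 and 3, so its fold is rough. All its exon bases lie in exons of other loci, as do 84.0% of those of MSTRG.9928 and 24.5% of those of MSTRG.12071. The other falls were MSTRG.18198 (-2.05 ± 0.35, adjusted p = 0.0257), MSTRG.8383, 10.6 kb from Mir23a (-1.59 ± 0.28, adjusted p = 0.0264), and MSTRG.17755 (-1.33 ± 0.27, adjusted p = 0.0352). MSTRG.18198 was listed at 0 in combination replicates 2 and 3, so its fold is rough too. Its model and combination libraries averaged 0.788 and 0.0546 TPM, so it passed the 1 TPM limit through the normal libraries.

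Each locus was set beside the named gene of its position (the gene it overlaps, faces or lies nearest to), which was itself tested for 873 loci. The signs of the log2 fold changes were the same in 63.5%, 64.3% and 64.8% of them for model against normal, combination against model and combination against normal. For 11252 pairs of adjacent named genes the shares were 53.2%, 53.5% and 54.6%. Where at least 50% of the exon bases of a locus lay in exons of other loci, the shares were 70.4%, 69.0% and 65.8%, and where none did they were 55.6%, 59.3% and 64.4%. The shares were thus higher where exons overlap than where none did in the first 2 comparisons and close in the third, and reads of overlapping exons of the 2 strands cannot be told apart. Of the 55 loci called in model against normal, 42 had a tested partner, 31 of the same sign and 8 called themselves. In combination against model 28 of 37 had the same sign and 6 partners were called, and in combination against normal 26 of 33 and 3. The partners called were 19.0%, 16.2% and 9.09% of those tested beside a called locus, where 4.99%, 4.47% and 4.56% of all units were called.

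**Figure D4:**
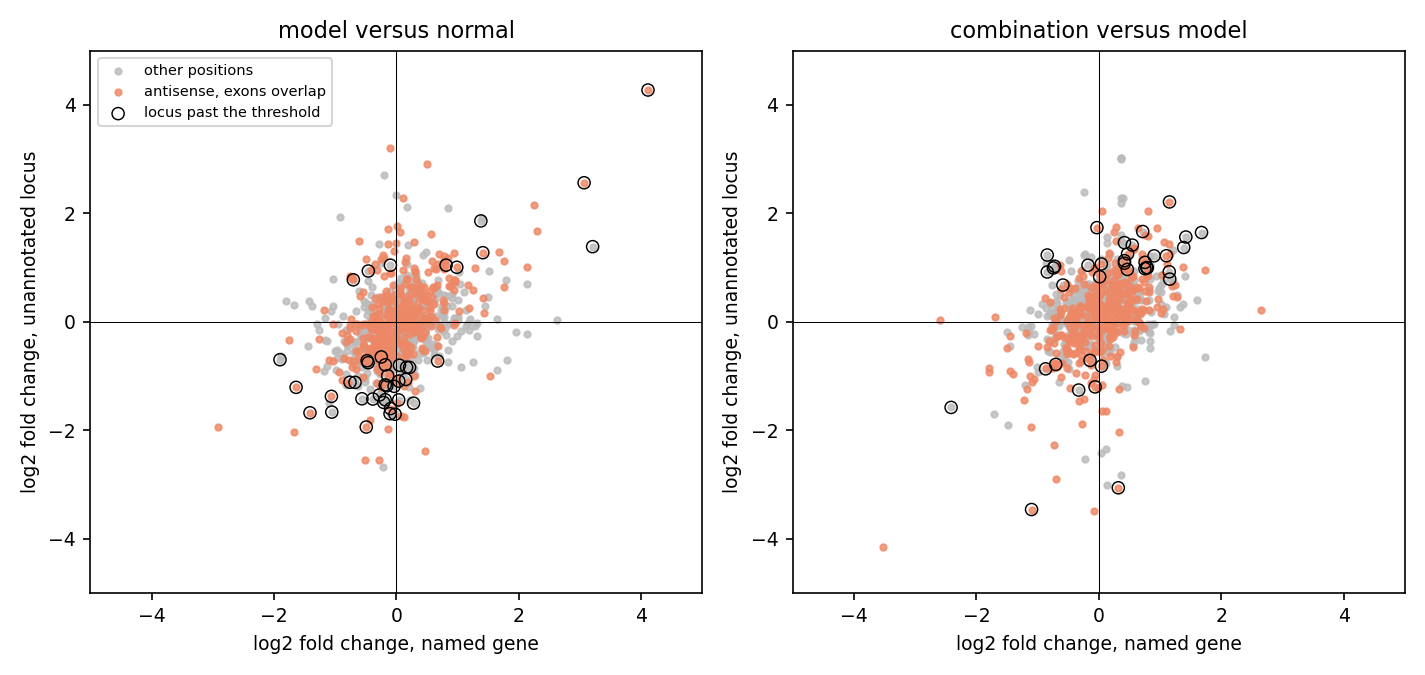
Log2 fold change of each unannotated locus (vertical) against that of its named gene (horizontal), for model against normal (left) and combination against model (right), with antisense loci that overlap exons in orange and loci past the threshold circled. Signs were the same in 63.5% and 64.3% of the 873 pairs, and MSTRG.2477 with Hba-a2 lies at the upper right of the left panel.

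For 42 loci the nearest named gene was 1 of 207 measured genes of an immune list, 35 genes in all. Of the 42, 4 passed in each comparison: 1 higher and 3 lower in the model than in normal, 2 and 2 in combination against model, and 2 and 2 in combination against normal. These shares of 9.52% stand beside 4.99%, 4.47% and 4.56% of all units and rest on 4 loci each. Apart from loci given above they were chosen after values were seen. MSTRG.15375 (chr7:61364133-61476000, minus strand, up to 6 exons), 22.7 kb from Ifng, the gene of interferon gamma, was at 7.303, 11.1 and 9.15 TPM in the normal libraries, 3.14, 6.05 and 2.58 TPM in the model libraries and 3.84, 4.17 and 3.42 TPM in the combination libraries and fell in the model (-1.09 ± 0.26, adjusted p = 0.0463). MSTRG.15373 (chr7:61319607-61352143, plus strand, 2 exons), on the strand of Ifng and across it, was at 4.87, 4.001 and 4.94 TPM in the normal libraries, 3.55, 3.24 and 2.92 TPM in the model libraries and 6.09, 6.06 and 5.199 TPM in the combination libraries, lowest in the model and highest in the combination with no overlap (0.68 ± 0.16, adjusted p = 0.04895 against model). Ifng averaged 1.64, 1.72 and 0.812 TPM, so gene and loci did not share an order of groups.

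MSTRG.5038, downstream of the antiproliferative gene Btg2, fell in the model (-1.19 ± 0.21, adjusted p = 0.0249) and in combination against normal (-0.95 ± 0.21, adjusted p = 0.0437), and MSTRG.14653, 17.3 kb from Fos, fell in the second (-1.11 ± 0.25, adjusted p = 0.0437). MSTRG.14177 (chr6:25585248-25598722, plus strand, 2 exons), 214 bases from Fosl2, an AP-1 subunit, was at 22.2, 14.9 and 23.5 TPM in the normal libraries, 23.5, 24.8 and 32.7 TPM in the model libraries and 69.2, 50.8 and 37.9 TPM in the combination libraries and rose in combination against normal (1.32 ± 0.26, adjusted p = 0.0337). Fosl2 differed by 0.896 ± 0.27, adjusted p = 0.0813.

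Other abundant loci beside immune genes varied without passing. MSTRG.3329 (chr10:87027051-87058359, plus strand), antisense to Ccr7, the lymph node homing receptor of naive T cells, was at 426, 330.0 and 373 TPM in the normal libraries, 389.7, 227 and 781 TPM in the model libraries and 419, 259 and 363 TPM in the combination libraries. MSTRG.3333, which starts 92 bases from Ccr7 and has up to 11 exons, was at 14.9, 24.2 and 24.3 TPM in the normal libraries, 16.1, 9.71 and 12.9 TPM in the model libraries and 11.9, 8.87 and 18.4 TPM in the combination libraries, and Ccr7 at 1118, 1250.2 and 897 TPM in the normal libraries, 1568, 1012 and 1281 TPM in the model libraries and 1192, 957 and 437 TPM in the combination libraries. Groups overlapped for both loci and for the gene in model against normal. MSTRG.2644, antisense to Irf1 with 2.19% of its exon bases in exons of other loci, was at 10.8, 19.3 and 12.6 TPM in the normal libraries, 10.05, 3.97 and 6.35 TPM in the model libraries and 11.8, 12.3 and 19.6 TPM in the combination libraries, lowest in the model (-1.01 ± 0.33, adjusted p = 0.0968), whereas Irf1, an interferon response factor, rose there (1.53 ± 0.27, adjusted p = 0.0236). MSTRG.4844, antisense to the selectin ligand gene Selplg with all its exon bases in exons of other loci, was highest in the model (0.64 ± 0.22, adjusted p = 0.106), and MSTRG.17709, antisense to the interleukin 7 receptor gene Il7r, was highest in the combination on average (0.56 ± 0.21, adjusted p = 0.129 against model). None of these 5 loci passed in any comparison.

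At Btg1, another antiproliferative gene, single libraries carried the values. MSTRG.15300, which starts 438 bases from Btg1 and has 2.995% of its TPM in spliced transcripts, was at 7.76, 389 and 8.07 TPM in the normal libraries, 4.87, 3.19 and 3.72 TPM in the model libraries and 3.101, 3.65 and 6.61 TPM in the combination libraries. MSTRG.15301, antisense to Btg1, was at 117, 8.29 and 113 TPM in the normal libraries, 24.5, 682 and 93.8 TPM in the model libraries and 516, 14.9 and 24.5 TPM in the combination libraries. Normal replicate 2 stood far above all others in the first, and model replicate 2 and combination replicate 1 in the second. Btg1 itself was between 1579 and 2309.7 TPM in every library. MSTRG.6878, antisense to the AP-1 subunit gene Jund with all its exon bases in exons of other loci, ranged from 0 to 31.2 TPM beside 1141 to 2815 TPM of Jund. At these 3 loci single libraries thus stood apart within their group.

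**Figure D5:**
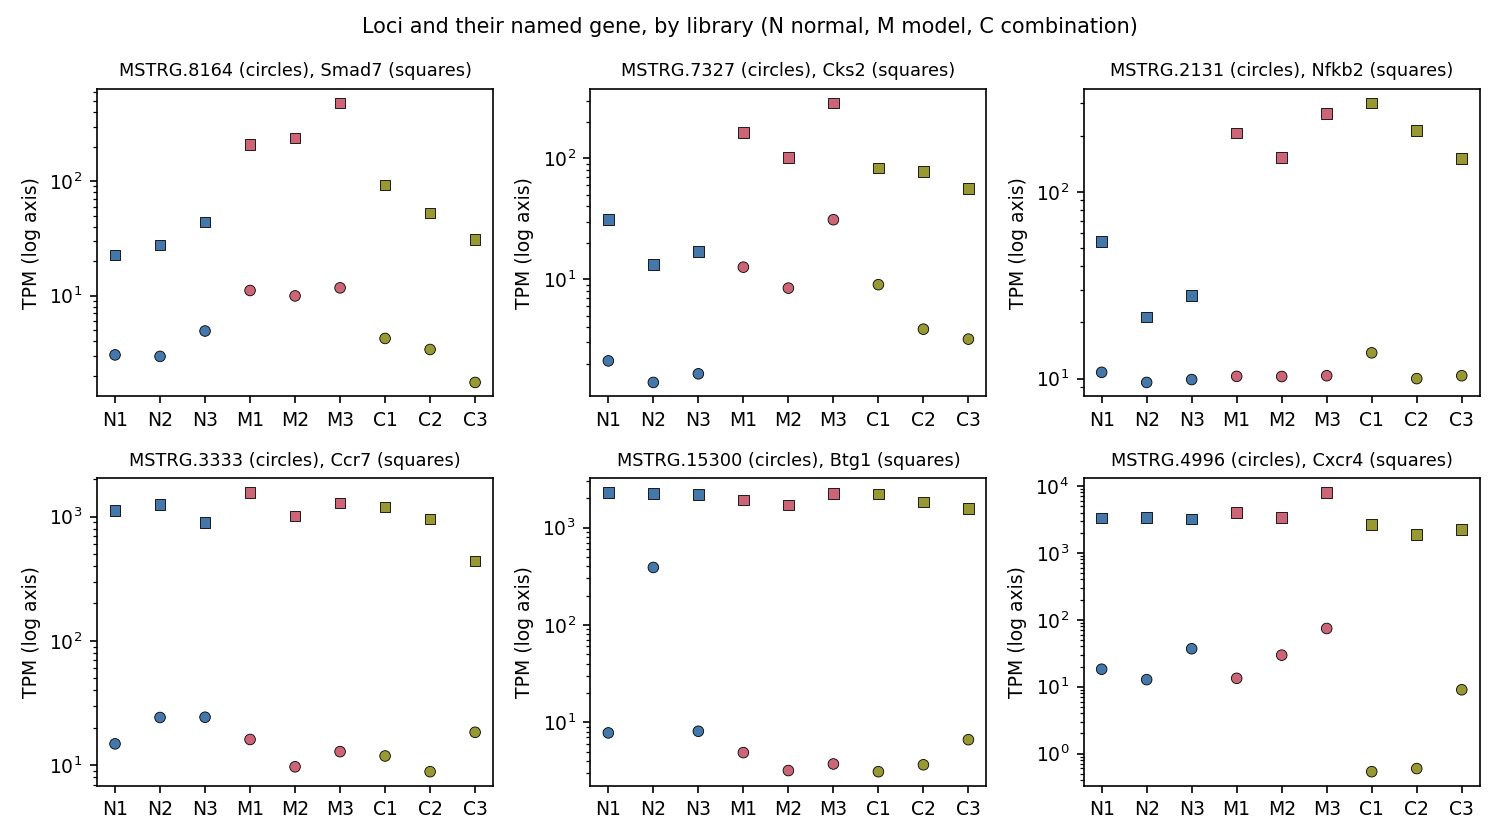
TPM (log axis) of 6 loci (circles) and the named gene each lies beside (squares) in each library, coloured by group. MSTRG.8164 with Smad7 and MSTRG.7327 with Cks2 are highest in the model libraries, MSTRG.2131 stays between 9.55 and 13.8 TPM while Nfkb2 is higher in model and combination libraries, and MSTRG.15300 is high in normal replicate 2.

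Loci also gathered in 2 immune regions, a grouping made after values were seen. On chromosome 15 between Mettl3 and Dad1 (28721128 to 32868086), the interval of the T cell receptor alpha and delta genes, lay 45 loci with a median level of 1.63 TPM. Of these 5 fell in model against normal (11.1%, against 4.99% of all units called) and none rose, none passed in combination against model by limma, and 2 fell in combination against normal (4.44%, against 4.56%). At an unadjusted p under 0.05 there were 10, all lower, in model against normal, 5 in combination against model and 12, all lower, in combination against normal. These are 22.2%, 11.1% and 26.7% of the 45, against 27.1%, 26.3% and 26.1% of all units. MSTRG.6249 was at 4.24, 5.27 and 7.61 TPM in normal, 1.57, 1.57 and 1.15 TPM in model and 2.48, 3.28 and 5.89 TPM in combination libraries (-1.44 ± 0.28, adjusted p = 0.0279), and MSTRG.6249 and MSTRG.6250 each overlap another of the loci. MSTRG.6251 was at 5.93, 6.01 and 6.23 TPM in the normal libraries, 3.02, 3.97 and 2.66 TPM in the model libraries and 3.46, 2.71 and 2.84 TPM in the combination libraries and fell against normal in both other groups (-0.75 ± 0.18, adjusted p = 0.0434 in the model, -0.82 ± 0.18, adjusted p = 0.0385 in the combination). Normal libraries lay above all others in MSTRG.6251 and MSTRG.6348. MSTRG.6348 averaged 1.85, 0.631 and 0.519 TPM in normal, model and combination libraries, so it passed the 1 TPM limit through the normal libraries. The summed TPM of 7 T cell markers was also lower in the model, at 1847 to 2480 TPM against 2509 to 3203 TPM in normal libraries, and its part in these falls was not tested. Receptor gene segments resemble each other, so reads there can be split between loci.

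The nearest named gene was an RT1 gene, of the rat major histocompatibility complex on chromosome 20, for 35 loci with a median of 10.1 TPM. None passed in model against normal by limma. In combination against model 2 rose (5.71%, against 4.47% of all units called), and in combination against normal 3 rose (8.57%, against 4.56%), so the calls rest on few loci. At an unadjusted p under 0.05 there were 6, 8 and 17 of the 35, all higher, that is 17.1%, 22.9% and 48.6%, against 27.1%, 26.3% and 26.1% of all units in the same order. MSTRG.10185 (chr20:4657708-4663666, minus strand), in the span of RT1-CE1, was at 4.28, 4.95 and 4.51 TPM in the normal libraries, 3.88, 4.02 and 5.22 TPM in the model libraries and 13.1, 8.46 and 8.003 TPM in the combination libraries and rose in the combination (0.99 ± 0.21, adjusted p = 0.0384 against model). MSTRG.10209 (chr20:4905303-4910067, minus strand), antisense to Rn60_20_0050.1, was at 3.697, 4.45 and 3.76 TPM in the normal libraries, 5.64, 4.36 and 6.64 TPM in the model libraries and 16.8, 11.2 and 8.92 TPM in the combination libraries and rose as well (0.996 ± 0.24, adjusted p = 0.0485 against model). MSTRG.9928 was at 3.15, 5.94 and 5.64 TPM in the normal libraries, 7.49, 4.61 and 8.68 TPM in the model libraries and 18.9, 14.7 and 11.997 TPM in the combination libraries. In all 3 the combination libraries lay above all others. Rn60_20_0050.1 averaged 4.43, 6.76 and 12.7 TPM in the 3 groups and rose in combination against normal (log2 fold change 1.32, adjusted p = 0.0369), whereas RT1-CE1 and RT1-CE10 did not pass in any comparison. RT1 genes are near-identical copies of each other, so their reads are uncertain.

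The loci together held 3.10% to 3.57% of all TPM in a library. Their summed TPM was 32174, 33355 and 32328 in normal, 33567, 31049 and 32832 in model and 35550.3, 34045 and 35704 in combination libraries. The combination libraries lay above all others, and the smallest p that 3 against 3 libraries allow is 0.1 (exact two-sided permutation test, p = 0.1 against model, adjusted p = 0.15). With median-ratio scaling the combination libraries overlapped both other groups (p = 0.7 against model and 0.9 against normal), as with FPKM (p = 0.3 and 0.8, same exact test). Normal and model overlapped (p = 1 in the same exact test).

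Loci with the most exons were MSTRG.4436, MSTRG.16249 and MSTRG.11324, with up to 32, 28 and 28 exons, far above the median of 2 over all 1248. MSTRG.4436 (chr12:16959454-16974908, plus strand) lies 900 bases downstream of Ints1 on its strand and was at 23.3, 20.9 and 19.2 TPM in the normal libraries, 27.6, 20.7 and 30.996 TPM in the model libraries and 38.8, 30.4 and 21.97 TPM in the combination libraries. MSTRG.16249 (chr8:46227797-46287176, minus strand), between Ubash3b and Sc5d, was at 25.9, 49.6 and 33.4 TPM in the normal libraries, 14.6, 18.95 and 17.9 TPM in the model libraries and 26.3, 27.9 and 9.27 TPM in the combination libraries. By the count used above GRCr8 lists 6 genes there, Sorl1 among them. MSTRG.11324 (chr3:117824829-117893395, minus strand), in whose interval between Fbn1 and Shc4 GRCr8 lists Cep152, a centrosome gene, was at 3.54, 4.09 and 4.12 TPM in the normal libraries, 3.56, 4.53 and 5.06 TPM in the model libraries and 2.39, 2.31 and 2.18 TPM in the combination libraries, and its combination libraries lay below all others (-0.700 ± 0.17, adjusted p = 0.0505 against model). None of the 3 passed in any comparison, and whether they are these genes was not tested.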

How the data were processed

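RNA of CD4+ T cells of rat blood was measured in 9 libraries, 3 per group. Per the labels' protocols the library kit was NEBNext Ultra RNA, and per the submitters' processing notes reads were handled with bcl2fastq and HISAT2 on rn6. Per the file headers the authors ran StringTie 1.3.3b. The deposited transcript tables give coverage, FPKM and TPM in other text attributes of 1 column, and raw counts, read length and strand setting are not given in the sources used here. Depth was computed from coverage per FPKM.

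TPM was summed over a locus, or over a reference gene name within it, which gave 36858 gene units. The 14176 units with a mean of at least 1 TPM entered limma 3.58.1 (R 4.3.3) as log2(TPM + 1), with 1 coefficient per group over all 9 libraries and an intensity trend. Benjamini-Hochberg adjustment ran over all units, 0.05 was the threshold, and fold changes on this scale understate the change of low loci. On simulated data for model against normal, with scatter drawn separately for each unit, 200 of 14176 units were changed. The calls recovered 47.2% of those changed 2-fold, 86.1% at 4-fold and 95.1% at 8-fold, with 5.11% of calls false. Effects that the units of a library share were not simulated, so these rates cannot be carried over to the calls reported here. Tables and plots used pandas 2.3.3, numpy 2.4.6 and matplotlib 3.10.9 under Python 3.11.15.

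Loci were named by rule: in each comparison the 8 largest rises and 8 largest falls past the threshold whose groups lay apart, with at least 2 TPM in the higher group, the 10 of highest mean TPM, the 3 with most exons, the 3 on each side of the 1 TPM limit, the highest of each position class, and up to 12 nearest to a gene of a 210-gene immune list. The loci and lists were chosen with earlier results of these data known. Alternatives tried were FPKM in place of TPM, scaling by median ratios, other pseudocounts (0.1, 5), no level filter or one at 5 TPM, locus sums, 2-group fits, no trend, a replicate block, omission of each library, and other distance limits. RefSeq GRCr8 served for gene order and promoter sequences, without its coordinates. Counts of GRCr8 genes between flanks take only genes on the strand of the locus that the reference does not already name in that interval.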

Additional observations from a re-analysis of the deposited data

How the results depend on the processing

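The counts of loci past the threshold depended on the processing. For model against normal the count of 55 became 106 with FPKM, 110 with median-ratio scaling, 27 with a mean of at least 5 TPM, 6 with no filter and 13 with only the 2 groups compared. For combination against model the count of 54 became 101 with FPKM, 95 with median-ratio scaling, 18 with a mean of at least 5 TPM, 9 with no filter and 3 with only the 2 groups compared. For combination against normal the count of 49 became 87, 90, 16, 10 and 95 under the same 5 settings. The cause was not tested, except that the filters change how many units are tested. Omission of 1 library at a time gave 2 to 185 loci for model against normal, 4 to 108 for combination against model and 3 to 102 for combination against normal. Both pseudocounts, locus sums and omission of the trend left each count within 1.5 times its reported value. None of these 55, 54 and 49 calls turned in sign under any setting run. As the loci were picked from these same libraries, this is no independent support.

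Equal replicate numbers did not pair the libraries: residual correlations of same-numbered libraries were -0.14 to 0.0516, and the best match of a library had its own number in 1 of 9. With the replicate number as a block, 12, 2 and 10 loci passed in the order above.

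The difference in summed TPM was -0.42% for model against normal and -4.86% with FPKM. It was 8.06% for combination against model and 3.50% with median-ratio scaling, and 7.61% for combination against normal and 4.60% with median-ratio scaling. With limits of 5 kb for near and 1 kb for divergent starts, 42 loci lay downstream on the same strand and 51 near on the opposite strand. With limits of 50 kb and 5 kb, 189 lay downstream, 93 upstream on the same strand and 96 distant. Counts of reads per locus are not given, so the precision of single low values is unknown.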
